A study of Homo sapiens with 12 samples.

Results

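The enzymes of sarcosine and folate one-carbon metabolism described here are 9 genes, SARDH, GNMT, SHMT1, SHMT2, MTHFD1, MTHFD2, MTHFD1L, MAT2A and AHCY, of the 34643 gene symbols in the table. They were chosen by name and not by a cut on their values, although earlier results of these data were known. SARDH was included because its protein is a known binding partner of TMEFF2. All 9 were in the table, and 8 of them were among the 15419 genes with enough reads to be tested.

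The libraries were made from LNCaP, a line of human prostate cancer cells that respond to androgen, and comprised 4 groups of 3. Cells carried a scrambled shRNA (shScramble) or an shRNA against TMEFF2 (shTMEFF2), and received 10 nM dihydrotestosterone (DHT+), the most potent natural androgen, or ethanol vehicle (DHT-) for 24 h. All groups shared lentiviral transduction with pLKO.1-puro, in which the U6 promoter drives the shRNA, puromycin selection and 24 h in medium with charcoal-stripped serum, and the shRNA had been present for 17 days. Each repeat was its own treatment and RNA extraction, but the 3 of a group go back to 2 transductions that the labels do not tie to repeats, and which of the TMEFF2 shRNAs was used for sequencing is not given in the sources used here.

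One-carbon metabolism moves single carbon units, carried on tetrahydrofolate, from serine and glycine into purines, thymidylate and methionine. Methionine is activated to S-adenosylmethionine, the methyl donor of the cell. GNMT uses that donor to methylate glycine to sarcosine, and SARDH oxidizes sarcosine back to glycine in mitochondria and passes the carbon to folate. Serine hydroxymethyltransferases and the MTHFD enzymes run in parallel in cytosol and mitochondria. In prostate cancer, sarcosine is known as a metabolite that has been studied as a marker of disease.

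Promoter sequences are shown for GNMT, the member with the largest response to DHT, and for MTHFD1 and MTHFD1L, whose windows held a motif match. They are RefSeq windows on GRCh38.p14 from 250 bases before to 50 bases after a start site, all on the plus strand. The GNMT window is chr6:42960504-42960803, the MTHFD1 window is chr14:64388103-64388402 and the MTHFD1L window, 1 of its 4, is chr6:150866236-150866535. Capitals mark matches to 3 motifs searched on both strands, the E box CACGTG, the C/EBP-ATF response element TGATGNAA and the E2F core GCGGGAA.
GNMT: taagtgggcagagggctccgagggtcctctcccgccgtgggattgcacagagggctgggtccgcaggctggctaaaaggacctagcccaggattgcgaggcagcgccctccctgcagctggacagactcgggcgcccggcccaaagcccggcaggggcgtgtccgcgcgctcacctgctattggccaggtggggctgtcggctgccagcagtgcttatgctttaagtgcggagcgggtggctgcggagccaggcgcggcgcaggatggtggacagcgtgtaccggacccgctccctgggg
MTHFD1: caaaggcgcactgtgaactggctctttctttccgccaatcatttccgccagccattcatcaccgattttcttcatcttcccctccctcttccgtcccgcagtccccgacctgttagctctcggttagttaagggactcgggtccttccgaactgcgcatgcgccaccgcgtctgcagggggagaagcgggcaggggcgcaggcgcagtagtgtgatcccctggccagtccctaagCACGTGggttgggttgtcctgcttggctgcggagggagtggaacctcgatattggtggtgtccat
MTHFD1L: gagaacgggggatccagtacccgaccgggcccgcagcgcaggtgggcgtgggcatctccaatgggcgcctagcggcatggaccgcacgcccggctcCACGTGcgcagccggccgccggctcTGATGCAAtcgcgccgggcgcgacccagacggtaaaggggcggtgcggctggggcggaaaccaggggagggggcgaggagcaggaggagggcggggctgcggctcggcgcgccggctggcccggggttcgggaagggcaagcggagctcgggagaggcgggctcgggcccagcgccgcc

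RefSeq windows were found for 8 of the 9 members, 14 windows in all. SHMT2 had no entry. The E box lay 15 bases before the start site in MTHFD1 and 154 bases before it in the MTHFD1L window shown. That window also held the C/EBP-ATF letters 129 bases before the start without overlap. These distances depend on the start site. In other MTHFD1L windows the E box lay 1 and 115 bases before the start. The C/EBP-ATF letters lay 24 bases after and 90 bases before it, and another window held neither. An E2F core was found in 1 of 3 AHCY windows. The GNMT window held none of the 3 motifs. Of 35116 RefSeq promoter windows, 7.26% held the E box, 6.55% the E2F core and 3.62% the C/EBP-ATF letters. These matches describe letters only.

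Libraries held 19450866 to 22612046 counts. Prostate luminal markers (among them KLK3, FOLH1, HOXB13, KRT8 and KRT18) were detected in all 12 libraries. Basal epithelial markers summed to at most 1.74 CPM, with KRT5 at 0 in every library and KRT14 called higher with DHT in shScramble, where it had 14.7 to 28.5 counts. Stromal markers summed to 12.3 to 31.7 CPM, mostly from COL1A1, and endothelial markers to 13.2 to 29.5 CPM, mostly from VWF. Leukocyte markers summed to 7.83 to 12.6 CPM, with up to 170.3 counts of PTPRC, 177 of CD68 and 1.00 of CD3E. TMEFF2, the target of the shRNA, was at 77.8, 73.8 and 103 CPM (counts scaled to 1000000 per library, with TMM normalization) in shScramble DHT- and at 68.6, 39.4 and 81.7 CPM in shTMEFF2 DHT-. With DHT it was at 173, 117 and 169 CPM in shScramble and at 142, 90.1 and 115 CPM in shTMEFF2. The ranges of the lines overlapped at both DHT levels, and neither difference passed the test (log2 -0.43, adjusted p = 0.50 without DHT, and log2 -0.41, adjusted p = 0.30 with DHT). In every same-numbered pair the level was lower in shTMEFF2. Lowered TMEFF2 RNA in the shTMEFF2 libraries is therefore given by the labels and not shown by the test on these counts. The paper reported silencing of TMEFF2 in LNCaP by Western blot and also gave TMEFF2 mRNA levels, which are measures apart from these libraries.

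Below, a gene is called when it changed at least 1.5-fold with an adjusted p of at most 0.05, from the quasi-likelihood test of edgeR, adjusted by Benjamini-Hochberg for 15419 genes. All adjusted p-values below are from this test. Each value in a list of 3 is 1 library, in the order of the replicate numbers, errors after a mean are SD over 3 libraries, and errors of log2 changes are standard errors (SE). In cells measured in bulk, fewer cells that express a gene and less RNA per cell cannot be told apart. The comparisons of DHT within a line and of the lines within a DHT level share libraries and are not independent of each other.

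GNMT, which makes sarcosine from glycine, rose strongly with DHT in both lines, and rose less in shTMEFF2 than in shScramble. The gene lies on the plus strand of chromosome 6 (GRCh38 42960754 to 42963880) and its canonical transcript has 6 exons. In shScramble DHT- libraries GNMT was at 4.88, 4.67 and 4.30 CPM, and with DHT it was at 41.0, 46.3 and 44.6 CPM. Each library with DHT lay far above each one without it. The mean went from 4.62 ± 0.30 to 43.96 ± 2.7 CPM, a fitted 9.50-fold change (log2 3.25 ± 0.17, adjusted p = 7.3e-08). This was the 49th highest change of the 15419 genes tested.

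In shTMEFF2 the GNMT level was 4.24, 4.15 and 4.27 CPM without DHT and 8.14, 13.5 and 12.9 CPM with it. The groups did not overlap, and the library of replicate 1 was the lowest of the DHT+ group. The change was 2.73-fold (log2 1.45 ± 0.17, adjusted p = 0.00042). The response to DHT was smaller in shTMEFF2 than in shScramble by 1.80 on the log2 scale (difference -1.80 ± 0.23, adjusted p = 0.00092, 128th lowest of all genes tested).

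Between the lines, GNMT without DHT differed little, with means of 4.62 ± 0.30 CPM in shScramble and 4.22 ± 0.064 CPM in shTMEFF2 (log2 -0.13 ± 0.17, 95% interval -0.51 to 0.25, adjusted p = 0.82). With DHT, GNMT was 3.81-fold lower in shTMEFF2, at 11.5 ± 3.0 CPM against 43.96 ± 2.7 CPM (log2 -1.93 ± 0.15, adjusted p = 6.9e-06, 80th lowest). The counts behind these levels were 87.8 to 108 per library in shScramble DHT- and 813 to 948 in shScramble DHT+. PEX6, a peroxisome biogenesis gene, overlaps the 3' end of GNMT on the opposite strand. The counts do not carry strand, and PEX6 itself changed by log2 -0.04 ± 0.10 with DHT in shScramble and by -0.03 ± 0.10 in shTMEFF2.

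Outside the members, the gene whose pattern lay closest to that of GNMT was SLC45A3, which encodes prostein, a prostate-specific membrane protein. Likeness was the root mean square difference of centred log2 CPM over the 12 libraries, which was 0.19 for SLC45A3 beside an SD of 1.36 for GNMT itself. The mean level of SLC45A3 was 69.7 ± 5.0 CPM in shScramble DHT- and 534 ± 62 CPM in shScramble DHT+. In shTMEFF2 it was 54.7 ± 5.4 CPM without DHT and 161 ± 21 CPM with DHT. Both genes were thus high in shScramble DHT+, intermediate in shTMEFF2 DHT+ and low in the other groups. Luminal markers moved beside GNMT, in both directions. Of the 6 on the list, 3 were called higher and 2 lower with DHT in shScramble (5.45% and 6.45% of all genes). In shTMEFF2 1 was called higher with DHT (3.28% of all genes). Against shScramble, 3 were called lower in shTMEFF2 with DHT (3.74% of all genes) and 1 without it (0.571% in either direction). The responses of 4 differed between the lines (4.94% of all genes), 2 with a higher and 2 with a lower difference. The summed level of the luminal markers was 6239 to 6482 CPM in shScramble DHT- and 11142 to 11828 CPM in shScramble DHT+. It was 4164 to 4644 and 4825 to 5745 CPM in shTMEFF2. In shScramble DHT+ KLK3 alone had a mean of 7495 CPM, beside a mean sum of 11565.5 CPM. Few markers of other cell types were tested, 1 basal, 1 stromal, 2 endothelial and 2 leukocyte. Of these, 3 were called between the lines with DHT (6.77% of all genes). KRT14 was lower in shTMEFF2, where it had at most 8.86 counts in a library with DHT, while VWF and PTPRC were higher. The part of these markers in the level of GNMT was not tested.

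SARDH, the mitochondrial sarcosine dehydrogenase, was barely detected. It is on the minus strand of chromosome 9 (133663560 to 133739955) with 21 exons in the canonical transcript. The estimated counts were 6.32, 0 and 1.26 in shScramble DHT-, 2.24, 4.16 and 4.82 in shScramble DHT+, 4.00, 3.34 and 2.67 in shTMEFF2 DHT-, and 5.22, 3.34 and 0.11 in shTMEFF2 DHT+. All groups overlapped, and no library passed 0.29 CPM. SARDH did not pass the filter on low counts. Fitted without that filter, over 25559 genes, it had unadjusted p-values of 0.46 to 0.73 in the 5 comparisons, so a change of SARDH was not detectable at this depth.

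**Figure D1:**
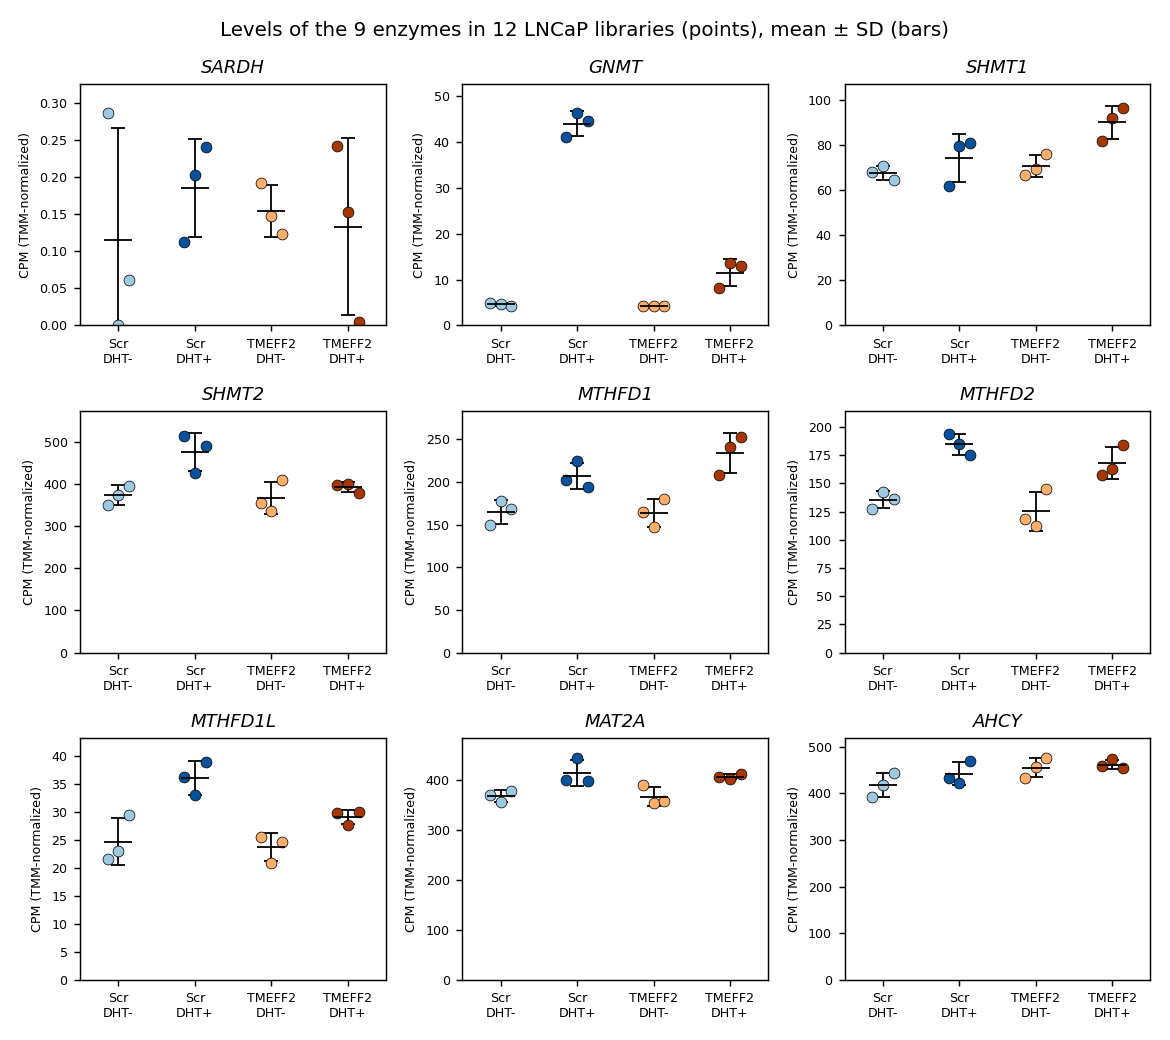
Level of each of the 9 enzymes (CPM, TMM-normalized, linear axis from 0) in shScramble (Scr) and shTMEFF2 (TMEFF2) libraries without and with DHT. Points are the 3 libraries of a group, the horizontal bar is their mean and the whiskers are SD, cut at 0 for SARDH. GNMT stands at 41.0 to 46.3 CPM in shScramble DHT+ and at 8.14 to 13.5 CPM in shTMEFF2 DHT+, above 4.15 to 4.88 CPM without DHT.

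Serine hydroxymethyltransferases split serine into glycine and a one-carbon unit, SHMT1 in the cytosol and SHMT2 in mitochondria. SHMT1 (chromosome 17, 18327860 to 18363563, minus strand) was at 68.2, 70.6 and 64.6 CPM in shScramble DHT- and at 61.9, 79.7 and 81.0 CPM in shScramble DHT+. These groups overlapped (log2 0.13 ± 0.10, adjusted p = 0.38). In shTMEFF2 it was at 66.7, 69.3 and 76.0 CPM without DHT and at 82.1, 92.0 and 96.5 CPM with it. All DHT+ libraries of shTMEFF2 lay above the DHT- ones, by 1.28-fold (log2 0.35 ± 0.10, adjusted p = 0.038), which is under the 1.5-fold limit. The adjusted p was lost when 1 of several libraries was left out, being 0.051 without shScramble DHT- replicate 1, 0.13 without shTMEFF2 DHT- replicate 1, 0.11 without its replicate 2, 0.086 without shTMEFF2 DHT+ replicate 2 and 0.13 without its replicate 3. It was 0.063 and 0.074 with the first or the second column of each library alone. The difference between the responses of the lines did not pass the test (log2 0.22 ± 0.14, adjusted p = 0.48).

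SHMT2 (chromosome 12, 57229573 to 57234935, plus strand) was higher with DHT in shScramble. It was at 349.6, 374 and 396 CPM without DHT and at 513, 426 and 489.8 CPM with DHT, with no overlap. The change was 1.28-fold (log2 0.35 ± 0.085, adjusted p = 0.0083). Its shTMEFF2 libraries were at 355, 336 and 409 CPM without DHT and at 398, 400.0 and 378 CPM with DHT, and these groups overlapped (log2 0.10 ± 0.084, adjusted p = 0.52). With DHT, all shTMEFF2 libraries were below all shScramble ones (log2 -0.28 ± 0.084, adjusted p = 0.040). That adjusted p rose above 0.05 in 10 of 22 alternatives, 8 of which left out 1 library, and reached 0.17 without shScramble DHT+ replicate 1. The others were 0.055 and 0.052 without shScramble DHT- replicates 2 and 3, 0.11 without shScramble DHT+ replicate 3, 0.052 without shTMEFF2 DHT- replicate 1, and 0.082, 0.089 and 0.14 without shTMEFF2 DHT+ replicates 1, 2 and 3. The difference of the DHT responses was log2 -0.26 ± 0.12 (95% interval -0.51 to 0.0036, adjusted p = 0.29), so a difference between the lines in the response of SHMT2 was not shown.

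The MTHFD enzymes interconvert the one-carbon forms of folate. MTHFD1 does so in the cytosol with 3 activities, MTHFD2 is a mitochondrial dehydrogenase and cyclohydrolase, and MTHFD1L makes formate in mitochondria. In shScramble all of them were higher with DHT at the adjusted p, and each by less than 1.5-fold. In shTMEFF2 this held for MTHFD1 and MTHFD2.

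MTHFD1 (chromosome 14, 64388031 to 64463457, plus strand) was at 149, 177 and 168 CPM in shScramble DHT- and at 202, 224 and 194 CPM in shScramble DHT+. The groups did not overlap, and the change was 1.25-fold (log2 0.33 ± 0.097, adjusted p = 0.025). Without shScramble DHT- replicate 1 the adjusted p was 0.10, and without shScramble DHT+ replicate 2 it was 0.098. It was 0.071 with library size only and 0.073 with the first column of each library alone. In shTMEFF2 MTHFD1 was at 165, 147 and 179.7 CPM without DHT and at 208, 240.4 and 253 CPM with it, again with no overlap. The change was 1.43-fold (log2 0.51 ± 0.097, adjusted p = 0.0052). It passed 1.5-fold without shTMEFF2 DHT- replicate 3 and without shTMEFF2 DHT+ replicate 1, at log2 0.59 in both cases. The difference of the responses was log2 0.19 ± 0.14 (adjusted p = 0.56).

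Proliferation markers moved beside MTHFD1. Of 13 genes of DNA replication and mitosis, all of them tested, 12 were called higher with DHT in shTMEFF2 (3.28% of all genes) and 1 in shScramble (5.45% of all genes). At the adjusted p alone 13 were higher in shTMEFF2 (7.84% of all genes) and 7 in shScramble (14.4%). The difference between the responses was called for 1 of these markers (4.94% of all genes), a count near the background. Its direction was nevertheless shared, as the response was larger in shTMEFF2 for all 13 (median log2 0.43, beside 0.006 over all genes). With DHT, all 13 were higher in shTMEFF2 than in shScramble (median log2 0.46, beside 0.004 over all genes). Of these, 6 passed the adjusted p and 7 did not, and 1 was called. Without DHT, 7 of the markers were higher in shTMEFF2 and 6 lower (median log2 0.03), and 0 passed the adjusted p. Their summed level was 1300 to 1717 CPM in shTMEFF2 DHT- and 2321 to 2876 CPM in shTMEFF2 DHT+. In shScramble it was 1279 to 1590 CPM without DHT and 1669 to 2107 CPM with DHT. Their part in the levels of MTHFD1 was not tested.

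MTHFD2 (chromosome 2, 74186172 to 74217565, plus strand) was at 127, 142 and 136 CPM in shScramble DHT- and at 194, 184 and 175 CPM in shScramble DHT+. The shTMEFF2 libraries were at 118, 113 and 145 CPM without DHT and at 158, 163 and 184 CPM with it. Neither line showed overlap between DHT- and DHT+ libraries. The changes were 1.36-fold in shScramble (log2 0.45 ± 0.094, adjusted p = 0.0035) and 1.34-fold in shTMEFF2 (log2 0.43 ± 0.094, adjusted p = 0.011). In shTMEFF2 the adjusted p was 0.051 without DHT- replicate 2 and 0.052 without DHT+ replicate 3. The responses of the lines differed by log2 -0.02 ± 0.13, with a 95% interval from -0.31 to 0.27. MTHFD2 is also a target of the stress factor ATF4. Of 8 other ATF4 targets, 0 were called higher and 1 lower with DHT in shScramble (5.45% and 6.45% of all genes). None was called in shTMEFF2 (4.88% of all genes in either direction). At the adjusted p alone 2 were higher and 2 lower in shScramble (14.4% of all genes were higher). In shTMEFF2 0 were higher and 2 lower (7.84% of all genes were higher). The share of all genes lower at the adjusted p alone is not reported here, so the counts of lower genes have no background beside them. The median log2 change of the 8 ATF4 targets was 0.04 in shScramble and -0.006 in shTMEFF2, beside -0.01 and -0.02 over all genes. Their part in the level of MTHFD2 was not tested.

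MTHFD1L (chromosome 6, 150865679 to 151101887, plus strand) was at 21.6, 22.9 and 29.5 CPM in shScramble DHT- and at 36.2, 32.9 and 38.9 CPM in shScramble DHT+. The groups did not overlap, and the change was 1.46-fold (log2 0.55 ± 0.12, adjusted p = 0.0047), just under the 1.5-fold limit. It passed that limit without shScramble DHT- replicate 3 (log2 0.70), without shScramble DHT+ replicate 2 (log2 0.61) and with the first column of each library alone (log2 0.64). For shTMEFF2 the levels were 25.5, 20.9 and 24.6 CPM without DHT and 29.7, 27.7 and 29.9 CPM with it. These groups did not overlap, yet the change did not pass the test (log2 0.30 ± 0.12, adjusted p = 0.13). The first columns alone gave log2 0.09 and the second columns alone 0.55, so this value depended on which column of a library was read. The difference of the responses was log2 -0.25 ± 0.17 (adjusted p = 0.52), and it was 0.11 with second columns alone, so the lines were not shown to differ in the response of MTHFD1L. With DHT, MTHFD1L was at log2 -0.31 ± 0.12 in shTMEFF2 against shScramble (adjusted p = 0.099).

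In the methionine cycle, MAT2A makes S-adenosylmethionine and AHCY hydrolyses the S-adenosylhomocysteine left after methyl transfer. MAT2A (chromosome 2, 85539168 to 85545281, plus strand) was at 369.98, 356 and 379 CPM in shScramble DHT- and at 400.1, 443 and 397 CPM in shScramble DHT+. Levels in shTMEFF2 were 389, 354 and 357 CPM without DHT and 406, 403 and 411 CPM with it. The DHT+ libraries were the higher ones in both lines, by small amounts that did not pass the test (log2 0.17 ± 0.059, adjusted p = 0.051 in shScramble, and log2 0.15 ± 0.059, adjusted p = 0.12 in shTMEFF2). MAT2A passed the adjusted p in both lines with DESeq2 (0.024 and 0.048), and in shScramble also with limma-voom (0.047), with second columns alone (0.039), without shScramble DHT+ replicate 3 (0.048) and without shTMEFF2 DHT- replicate 1 (0.046).

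AHCY (chromosome 20, 34280268 to 34311802, minus strand) was at 392, 418 and 443 CPM in shScramble DHT- and at 433, 423 and 470.2 CPM in shScramble DHT+. In shTMEFF2 its level was 434, 456 and 476 CPM without DHT and 459, 473 and 454 CPM with it. The groups overlapped in both lines. Its DHT changes were log2 0.08 ± 0.062 in shScramble (95% interval -0.05 to 0.22) and 0.02 ± 0.062 in shTMEFF2 (95% interval -0.11 to 0.15).

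**Figure D2:**
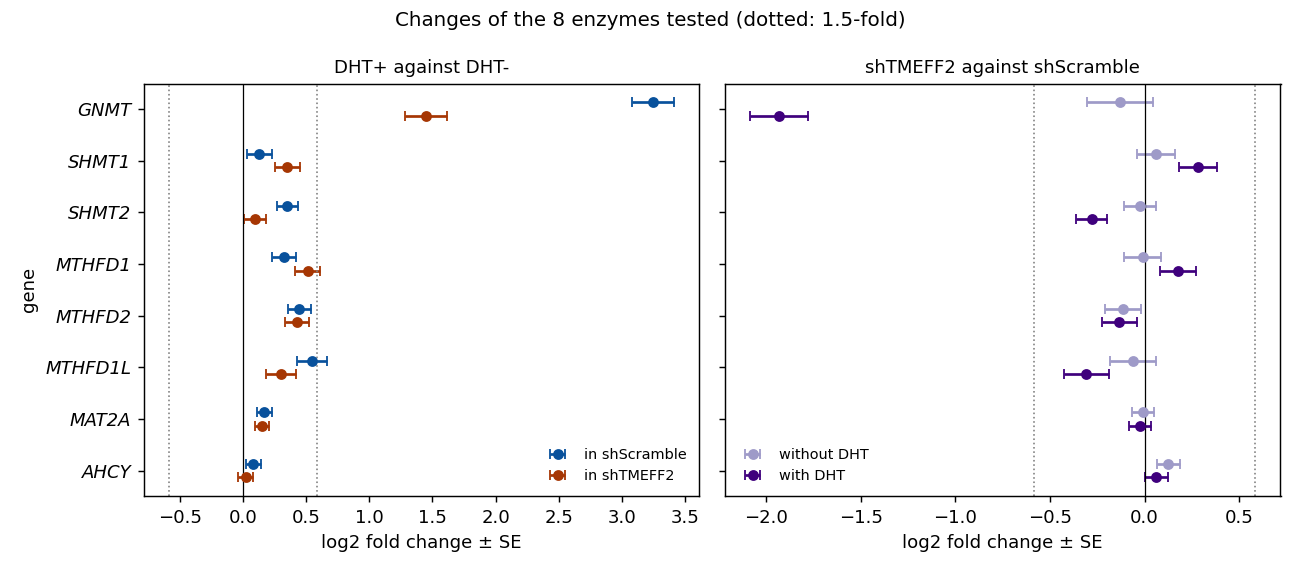
Log2 fold changes of the 8 enzymes tested, with standard errors as whiskers. The left panel gives DHT+ against DHT- within each line and the right panel shTMEFF2 against shScramble at each DHT level, and dotted lines mark 1.5-fold. GNMT is at 3.25 and 1.45 on the left and at -0.13 and -1.93 on the right, while the other 7 lie inside the dotted lines.

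Counted over the members, DHT in shScramble called 1 of the 8 tested, GNMT, and this compares with 11.9% of all genes tested (5.45% higher and 6.45% lower), so the count is near the background. At the adjusted p alone 5 of 8 were higher, against 14.4% of all genes, and 6 of 8 were higher without overlap between groups, against 21.3% of all genes. The median log2 change was 0.34 over the 8 and 0.33 without GNMT, beside -0.01 over all genes. DHT in shTMEFF2 called 1 of 8, again GNMT, beside 4.88% of all genes (3.28% higher). At the adjusted p alone 4 of 8 were higher (7.84% of all genes), 6 did not overlap (15.6% of all genes higher), and the median was 0.33 beside -0.02.

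Without DHT, shTMEFF2 against shScramble called 0 of the 8 members with edgeR, beside 0.571% of all genes. No member reached an unadjusted p of 0.05, and DESeq2 also called 0. GNMT was the 1 member without overlap between the lines, a state found for 18.5% of all genes. With DHT, 1 of 8 was called, GNMT, which was lower (3.74% of all genes were lower and 6.77% changed in either direction). GNMT and SHMT2 were lower at the adjusted p alone, beside 9.09% of all genes, and 4 members did not overlap, beside 32.5%. The difference between the responses of the lines was called for 1 of 8, GNMT, beside 4.94% of all genes (3.29% lower).

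To compare levels between genes, CPM was divided by the length of the canonical transcript in kilobases, a length not taken from the authors' processing. AHCY, SHMT2 and MAT2A had the highest levels in every group, from 130 to 221 CPM per kb. In shScramble DHT- the order was AHCY (194 CPM per kb), SHMT2 (173), MAT2A (131), MTHFD1 (52.3), MTHFD2 (30.7), SHMT1 (26.8), MTHFD1L (7.15), GNMT (4.29) and SARDH (0.036). The ranges of AHCY and SHMT2 overlapped there, so the order of those neighbours is not fixed.

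With DHT, GNMT went from the eighth place in shScramble to the sixth, at 40.9 CPM per kb, where its range overlapped that of MTHFD2 at 41.9 CPM per kb. In shTMEFF2 it went from 3.92 to 10.7 CPM per kb, next to MTHFD1L at 8.43 CPM per kb, whose range lay within that of GNMT. MTHFD2 and SHMT1 overlapped in shTMEFF2 DHT- (28.4 and 28.0 CPM per kb) and in shTMEFF2 DHT+ (38.2 and 35.7 CPM per kb). The level of GNMT per kb in shScramble DHT+ was therefore above that of SHMT1 (29.4) and in shTMEFF2 DHT+ below it.

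**Figure D3:**
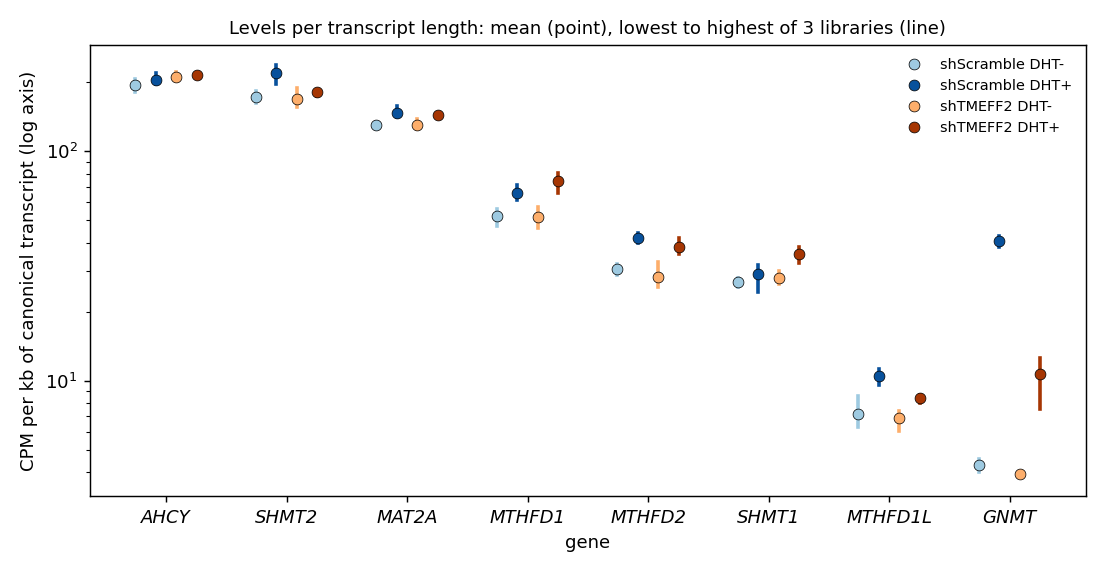
Level per kilobase of canonical transcript (CPM per kb, log axis) of the 8 enzymes tested, ordered by their level. Points are group means and lines run from the lowest to the highest of 3 libraries. GNMT moves from 4.29 to 40.9 CPM per kb with DHT in shScramble and from 3.92 to 10.7 in shTMEFF2, and AHCY lies between 194 and 215 in all groups.

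The wider pathway comprised 46 other one-carbon genes in the table, 43 of them tested (BHMT, BHMT2 and FOLR1 were not). With DHT 1 was called higher and 2 lower in shScramble (11.9% of all genes in either direction), and 3 higher and 1 lower in shTMEFF2 (4.88%). Between the lines, 0 were called by edgeR or by DESeq2 without DHT (7 reached an unadjusted p of 0.05, and 0.571% of all genes were called) and 1 was called lower with DHT (6.77%). The difference between the responses was called for 2, both higher (4.94%). The medians were log2 0.05 and 0.11 for DHT in shScramble and in shTMEFF2.

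Of the sarcosine, choline and betaine genes, 4 of 6 were tested and PIPOX was called. PIPOX, a peroxisomal oxidase that also acts on sarcosine, fell with DHT in both lines. It was at 2.81, 3.39 and 2.59 CPM in shScramble DHT- and at 1.56, 1.18 and 1.41 CPM in shScramble DHT+, a 2.12-fold fall (log2 -1.08 ± 0.25, adjusted p = 0.0065). In shTMEFF2 it was at 1.56, 2.35 and 2.41 CPM without DHT and at 1.36, 1.09 and 0.92 CPM with it (log2 -0.90 ± 0.26, adjusted p = 0.037). Neither line showed overlap. The call in shTMEFF2 rested on 20.7 to 53.1 counts per library and was lost in 8 of 21 alternatives, with adjusted p = 0.12 without shTMEFF2 DHT- replicate 2, 0.11 without its replicate 3, 0.094 without shTMEFF2 DHT+ replicate 2 and 0.15 without its replicate 3.

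Folate uptake and storage included FOLH1, the prostate-specific membrane antigen, which releases folate from its polyglutamate form. FOLH1 was at 2624, 2559 and 2515 CPM in shScramble DHT- and fell to 1393, 1381 and 1403 CPM with DHT (log2 -0.88 ± 0.045, adjusted p = 7.3e-08). In shTMEFF2 it went from 2172, 2299 and 2359 CPM to 1821, 1682 and 1735 CPM (log2 -0.38 ± 0.045, adjusted p = 0.00046). The fall was smaller in shTMEFF2, with a difference of log2 0.50 ± 0.064 (adjusted p = 0.00087). SLC25A32, the mitochondrial folate carrier, rose with DHT in shTMEFF2 from 19.0, 22.1 and 22.0 CPM to 29.2, 33.4 and 33.5 CPM (log2 0.61 ± 0.10, adjusted p = 0.0025), and without shTMEFF2 DHT- replicate 1 or with second columns alone the change was under 1.5-fold, at log2 0.54. In shScramble SLC25A32 was at log2 0.20 ± 0.10 (adjusted p = 0.16), and the difference of the responses did not pass the test (log2 0.41 ± 0.14, adjusted p = 0.14).

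Among the genes of folate interconversion, TYMS, which makes thymidylate, rose with DHT in shTMEFF2. It was at 75.2, 78.9 and 111 CPM without DHT and at 145, 161 and 192 CPM with it, with no overlap (log2 0.91 ± 0.15, adjusted p = 0.0028). In shScramble TYMS was at 92.9, 114 and 92.0 CPM without DHT and at 108, 135 and 118 CPM with it, and these groups overlapped (log2 0.27 ± 0.15, adjusted p = 0.21). The difference of the responses, log2 0.64 ± 0.21, did not pass the test (adjusted p = 0.12). The 12 proliferation markers called in shTMEFF2 moved in the same libraries, and their part in TYMS was not tested.

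ATIC, which carries out the last steps of purine synthesis with a folate-borne carbon, differed in its response between the lines. It was at 223, 246 and 247 CPM in shScramble DHT- and at 201, 205 and 200.3 CPM in shScramble DHT+ (log2 -0.24 ± 0.055, adjusted p = 0.0058). In shTMEFF2 it was at 232, 242 and 246 CPM without DHT and at 261, 254 and 267 CPM with it (log2 0.12 ± 0.055, adjusted p = 0.18). The difference was log2 0.36 ± 0.077 (adjusted p = 0.019, and 0.054 without shScramble DHT- replicate 2).

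NNMT, which methylates nicotinamide, was called among the 5 genes that use methyl groups or handle methylthioadenosine. It rose with DHT in shScramble from 0.79, 1.31 and 2.08 CPM to 5.80, 4.12 and 4.41 CPM (log2 1.78 ± 0.32, adjusted p = 0.0013). In shTMEFF2 it was at 1.48, 1.06 and 1.57 CPM without DHT and at 1.40, 2.17 and 1.83 CPM with it, and the groups overlapped (log2 0.39 ± 0.33, adjusted p = 0.50). With DHT it was lower in shTMEFF2 (log2 -1.40 ± 0.31, adjusted p = 0.0090, and 0.067 with first columns alone), though the difference of the responses did not pass the test (log2 -1.39 ± 0.46, adjusted p = 0.12). Of 7 genes of glycine cleavage and serine synthesis and 8 of the methionine cycle and transsulfuration, 0 were called by edgeR in any comparison. At an unadjusted p of 0.05 the first list had 1 to 3 genes per comparison and the second 0 to 3. At the adjusted p alone the first list had 1 higher and 1 lower with DHT in shScramble (14.4% of all genes were higher). It had 1 higher with DHT in shTMEFF2 (7.84%), and 2 higher and 1 lower between the lines with DHT (9.09% were lower). The second list had 1 lower, 1 higher and 1 higher in the same order. No gene of either list passed the adjusted p in the other comparisons. Shares of all genes for directions given without a percentage are not reported here, so those counts have no background beside them.

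**Figure D4:**
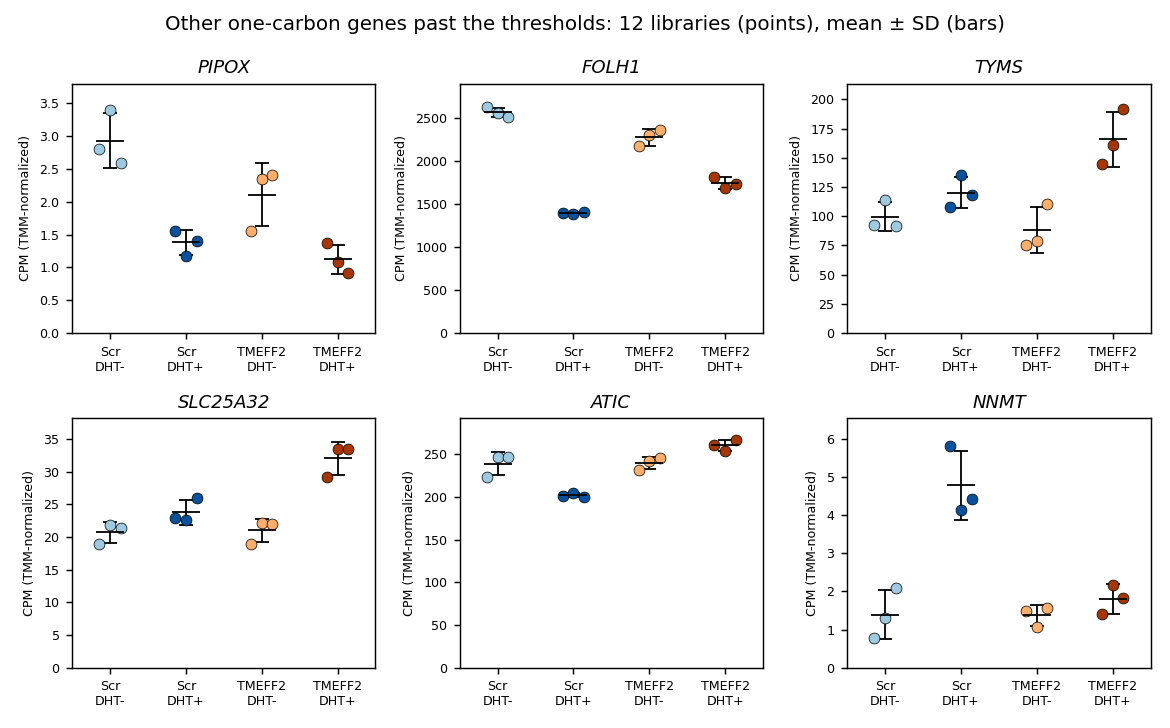
Level (CPM, TMM-normalized, linear axis from 0) of 6 other one-carbon genes that were called, in shScramble (Scr) and shTMEFF2 (TMEFF2) libraries without and with DHT. Points are the 3 libraries of a group, the horizontal bar is their mean and the whiskers are SD. TYMS and SLC25A32 have their 3 highest libraries in shTMEFF2 DHT+, and FOLH1 its 3 lowest in shScramble DHT+.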

How the data were processed

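RNA of 12 LNCaP libraries was sequenced in paired ends. Per the labels and the methods, the authors checked reads with FastQC, trimmed them with Trimmomatic, quantified transcripts with kallisto 0.42.3 on GRCh38 and used tximport to make the deposited table of estimated counts, which are summed to genes and corrected for transcript length. The authors' own test used DESeq2. The table has 24 columns, 2 for each library, whose names differ by a suffix. They were taken as repeat runs and summed into 1 replicate, although the sources do not say what the suffix stands for. The 2 columns lay closer to each other (median chi-square ratio 2.39 to 2.65, 12 pairs) than first columns of replicates did (3.86 to 4.59). That closeness does not establish that the columns are repeat runs.

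Sums of the deposited expected counts were rounded and passed to edgeR 4.0.16 under R 4.3.3 (TMM factors 0.955 to 1.037, filterByExpr with a minimum count of 10 and a minimum total of 15, 15419 genes kept). A single fit held all 12 libraries, with 1 mean for each group. P-values came from the quasi-likelihood test, adjusted by Benjamini-Hochberg for all genes tested, and differences between DHT responses were called on the adjusted p alone. CPM levels and likeness used the same normalization, with a prior count of 2 for log2 CPM. Levels at or under 3 counts were taken as the floor, which covers counting error only. The repeats share transductions, so p-values measure the spread between separate treatments.

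Alternatives were DESeq2 1.42.0, a mean above 5 CPM, no filter, library size only, DESeq2 size factors in edgeR, only the libraries that enter a comparison, limma-voom (limma 3.58.1) without rounding, a block for the replicate number, the first or second column alone, and each library left out in turn. The statistics were tested on simulated counts. Members, lists, tests and alternatives were chosen with earlier results of these data known. Named genes were the members, TMEFF2, wider pathway genes called in any comparison (at most 3 per list and comparison) and the gene most like each member called. Positions and lengths are from GENCODE on GRCh38. SMCR8, NDUFA4L2, ZBTB25, SLC4A5 and GGCX overlap SHMT1, SHMT2, MTHFD1, MTHFD2 and MAT2A on the opposite strand, and the deposited counts do not carry strand. Reads shared with pseudogenes could also be split, and MTHFD2P1 had up to 39.1 counts. A comparison of protein sequences was not made, and results of some genes and of 1 motif are not reported here, although counts over lists include those genes.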

Additional observations from a re-analysis of the deposited data

Results flagged for a closer look

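The response to DHT differed between the lines for 3 of the genes described, by the test of the difference itself (quasi-likelihood test of edgeR, adjusted by Benjamini-Hochberg). The difference, shTMEFF2 minus shScramble, was log2 -1.80 for GNMT (adjusted p = 0.00092), whose response was smaller in shTMEFF2. For FOLH1, which fell less in shTMEFF2, it was log2 0.50 (adjusted p = 0.00087). For ATIC, which was lower with DHT in shScramble and did not pass the test in shTMEFF2, it was log2 0.36 (adjusted p = 0.019). Groups of 3 libraries were too small for the test of single outlying libraries.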

How the results depend on the processing

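GNMT kept its direction and its call in all 22 alternatives for DHT in shScramble, DHT in shTMEFF2 and the lines with DHT, and in all 21 for the difference of responses, where its log2 value ran from -1.92 to -1.60. Counts that moved by more than 1.5 times were the members called for DHT in shScramble (2 with first columns alone, which added MTHFD1L), the wider pathway for DHT in shScramble (1 above 5 CPM, where fewer genes are tested), for DHT in shTMEFF2 (2 with second columns alone) and for the lines with DHT (2 with library size only). With 1 library left out, the members called numbered 1 to 2 for DHT in either line, and 0, 1 and 1 in the other comparisons. The wider pathway numbered 3 to 4 for either DHT comparison, 1 to 2 for the lines with DHT and 1 to 3 for the difference. The causes were not tested.

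Small changes that turned sign, none past the test, were MAT2A between the lines with DHT (0.0027 above 5 CPM, 0.035 with library size only) and without (0.019 with second columns), MAT2A in the difference (0.0063, 0.050 and, with first columns, 0.0014), MTHFD2 in the difference (0.0033, 0.047 and, with second columns, 0.028), AHCY in the difference (0.0070 with library size only), MTHFD1 between the lines without DHT (0.0021 with first columns), and MTHFD1L there (0.19 with first columns) and in the difference (0.11 with second columns). With 1 library left out, SHMT2 between the lines without DHT ran from -0.10 to 0.034, MTHFD1 from -0.077 to 0.063, MTHFD1L from -0.15 to 0.092 and MAT2A from -0.051 to 0.020. MAT2A between the lines with DHT ran from -0.052 to 0.042, its difference from -0.045 to 0.044, that of MTHFD2 from -0.092 to 0.10, and AHCY with DHT in shTMEFF2 from -0.012 to 0.062.

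Same-numbered libraries of different groups correlated at -0.0017 to 0.17 over 18 pairs, 3 of them over 0.1. Libraries with different numbers correlated at -0.14 to 0.066. The mean of each group was subtracted first, so deviations within a group cancel out and these ranges are not independent of each other. For 11 of 12 libraries the best match had their own number, a hint of pairing from the data. The labels do not say what a shared number stands for, so the samples were not treated as paired in the main fit. With the replicate number as a block the members called numbered 1, 1, 0, 1 and 1 in the 5 comparisons, and the wider pathway difference 3 against 2, as with DESeq2. With the block, SHMT1 (0.031) and MTHFD1L (0.042) passed the adjusted p between the lines with DHT, under 1.5-fold. TMEFF2 was lower in shTMEFF2 in all 6 same-numbered pairs between the lines, with a block adjusted p of 0.12 without DHT and 0.069 with it. SARDH is limited by depth, with at most 6.32 counts in a library.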
